A study of Mus musculus with 12 samples.

Results

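The genes described are 40 listed components of the DNA replication machinery, found by their symbol in the platform annotation. All 40 were measured, among 18820 genes with a value. Their RNA was followed in mouse B lymphoma cells that had kept or lost the B-cell receptor (BCR), in the presence or absence of CHIR99021, a compound that inhibits the kinase GSK3. The lymphomas arose in l-MYC;B1-8f mice of a C57BL/6J x BALB/c background. As background, the l-MYC (λ-MYC) transgene places MYC under immunoglobulin λ regulatory elements, and B1-8f is a prerearranged heavy-chain variable region flanked by loxP sites, so that Cre excision leaves cells without a BCR. All 4 groups therefore carried the MYC transgene. All came from primary cultures exposed to TAT-Cre, a cell-permeable recombinase, in which both kinds of cell grew side by side for 4 days. The groups were untreated BCR-positive, untreated BCR-negative, CHIR99021-treated BCR-positive and CHIR99021-treated BCR-negative cells, separated by flow sorting. Each held 3 Affymetrix arrays, 1 from each of the independent lymphomas 2564, 2646 and 2676. The sources used here state neither the dose of CHIR99021 nor the age of the mice.

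DNA replication is prepared in G1 phase, when the origin recognition complex with CDC6 and CDT1 loads the MCM2-7 helicase onto DNA. In S phase cyclin E with its kinase partner and the DBF4-dependent kinase CDC7 activate these helicases together with CDC45, the GINS complex and MCM10. Polymerases then copy both strands, held by the PCNA clamp and its loader RFC, while RPA covers single strands, FEN1 and LIG1 trim and join the lagging-strand fragments and chromatin assembly factor places histones. Many of these genes are transcribed in bursts at the G1-to-S transition under E2F factors, and dividing B cells carry high levels of their RNA.

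The array values are log2 expression, so a difference of 1 is a doubling. Values of several lymphomas are always given in the order 2564, 2646 and 2676. Differences are means of the differences within lymphomas (n = 3 lymphomas) ± the standard error (SE) from limma, a linear model with lymphoma as a block. This SE comes from the residual spread over all 12 arrays, drawn towards that of other genes. It is not the SE of the 3 differences themselves. Only a gene with a Benjamini-Hochberg adjusted p under 0.05 over all 18820 genes is said to have risen or fallen. Lower or higher without that statement describes values.

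Array medians over all probe sets lay between 4.71 and 4.92. The signal of Ighv1-72, the variable segment of B1-8, was 9.996 to 10.63 in BCR-positive and 6.56 to 9.12 in BCR-negative cells, and lower in the BCR-negative cells of each lymphoma. Of 8 B-cell markers 7 were measured, and Cd79a, Cd79b, Cd22, Pax5 and Ebf1 were at 8.34 or above on every array, while Cd74 ran from 5.86 to 10.28 and Ms4a1 stayed at or below 3.92. The 8 T-cell markers lay between 3.60 and 5.18 the 6 NK-cell ones between 3.23 and 5.76, the 6 stromal ones between 3.39 and 5.63 and the 3 measured erythroid ones between 4.02 and 5.05. Of 9 myeloid markers, Csf1r (up to 8.53) and Itgam (up to 8.03) gave signal, whereas Lyz2 did not exceed 4.28, Cd14 4.37 or Adgre1 3.64. All 40 replication genes had a mean at or above the 68.0th percentile of gene means, and none was dim. Since RNA came from bulk populations, fewer cells in S phase and less of an RNA per cell cannot be told apart.

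The first comparison asked what BCR loss changed in untreated cultures. Replication genes were lower in BCR-negative cells from licensing to fork control: 14 of 40 fell, none rose, and 26 did not pass. Over all genes the share called lower was 2.3%. At an unadjusted p under 0.05, 35 of 40 were lower, against 12.2% of all genes. Over all genes 432 fell and 359 rose; with array medians subtracted these were 1013 and 288, and with cyclic loess 261 and 389. All 40 differences were negative, with a median of -0.31 against -0.00 over all genes. The largest falls were those of Ccne1, which encodes cyclin E1, by 0.81 (to 56.9% of the BCR-positive level) and of Orc1, the largest subunit of the origin recognition complex, by 0.71 (to 61.2%). In 36 of 40 genes all 3 lymphomas had the lower value in BCR-negative cells, where 21.8% of all genes did. The exceptions were Cdc7, Pold1 and Pcna, with a positive difference in 2564, and Rpa3 and Cdc7, with one in 2676.

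**Figure D1:**
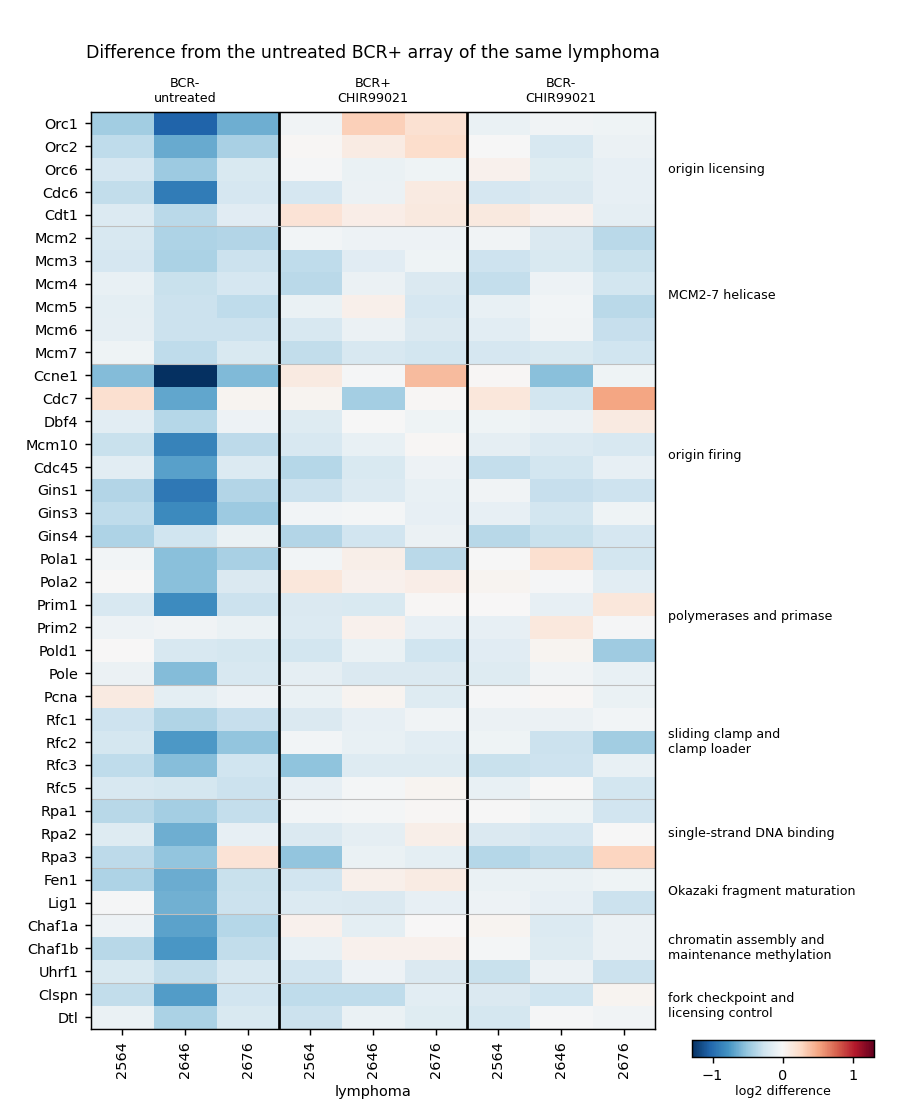
Log2 difference of each of 40 DNA replication genes (rows, grouped by role) from the untreated BCR+ array of the same lymphoma, for 3 lymphomas (columns) in the other 3 groups. The untreated BCR- columns are almost all blue, darkest in lymphoma 2646, and the CHIR99021 columns are paler in both populations.

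The median difference over the 40 genes was -0.21 in 2564, -0.54 in 2646 and -0.27 in 2676. For 34 of 40 genes the most negative difference was in 2646, for Gins4 it was in 2564, and for Mcm5, Mcm6, Pold1, Prim2 and Rfc5 in 2676. The plot of differences by lymphoma shows this as a darker column. The same count was not made over all genes, whose medians were -0.01, -0.01 and 0.00. Medians of related genes outside the 40 were -0.08, -0.33 and -0.20, and those of mitosis genes -0.05, -0.33 and -0.08, so the order was not particular to the members.

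The promoters of some of these genes are shown because all 40 differences had the same sign and E2F sites are a known feature of the family. RefSeq promoters (build GRCm38.p6, 250 bases before to 50 after each start) matched 34 of the 40 genes by symbol. They were searched on both strands for the E2F words TTTCGCGC and TTTGGCGC, which can overlap each other where a site is nearly palindromic. A word was present for 12 of 34 genes (35.3%), namely Cdt1, Clspn, Dtl, Lig1, Mcm3, Mcm5, Mcm6, Mcm7, Orc1, Pola1, Rfc3 and Uhrf1, against 0.929% of the 27025 genes with a promoter in the table. CCAAT was present for 23 of 34 (67.6%, against 41.1%) and the E-box CACGTG for 6 (17.6%, against 8.09%). TTTGAA, the core of the element that mitotic genes carry, was also present for 6 (17.6%, against 20.2%). The 150 bases before the start are printed 5′ to 3′ on the gene's strand, with E2F words on either strand in capitals. Orc1 lies at chr4:108579304-108579453 (+ strand), Mcm6 at chr1:128359706-128359855 (- strand), Rfc3 at chr5:151651209-151651358 (- strand), Dtl at chr1:191575545-191575694 (- strand) and Ccne1 at chr7:38107491-38107640 (- strand).
Orc1: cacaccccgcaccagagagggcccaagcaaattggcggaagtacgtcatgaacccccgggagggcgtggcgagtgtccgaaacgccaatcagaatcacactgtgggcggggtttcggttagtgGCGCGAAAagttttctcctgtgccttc
Mcm6: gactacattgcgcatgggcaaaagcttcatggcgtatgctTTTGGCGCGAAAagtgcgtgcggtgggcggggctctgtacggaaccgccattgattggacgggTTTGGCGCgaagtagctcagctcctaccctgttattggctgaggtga
Rfc3: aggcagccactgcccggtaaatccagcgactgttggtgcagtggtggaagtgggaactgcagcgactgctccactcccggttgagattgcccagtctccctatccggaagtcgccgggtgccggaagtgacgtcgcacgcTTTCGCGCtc
Dtl: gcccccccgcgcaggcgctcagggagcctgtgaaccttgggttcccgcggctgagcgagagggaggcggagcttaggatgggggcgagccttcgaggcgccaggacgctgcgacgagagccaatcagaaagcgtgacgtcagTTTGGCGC
Ccne1: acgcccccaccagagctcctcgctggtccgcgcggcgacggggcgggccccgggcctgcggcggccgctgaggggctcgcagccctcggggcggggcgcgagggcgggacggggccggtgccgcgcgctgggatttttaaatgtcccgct
Orc1 has 1 word, whose first base lies 27 bases before the start, and Mcm6 has 3, with 2 of them overlapping. Rfc3 and Dtl have 1 each, 10 and 8 bases before the start. The stretch of Ccne1, the gene with the largest fall, holds neither word. Of the 14 genes that fell, 12 have a promoter listed and only Orc1 and Clspn of these have a word within the 300 bases searched. The other genes with a word, Cdt1, Dtl, Lig1, Mcm3, Mcm5, Mcm6, Mcm7, Pola1, Rfc3 and Uhrf1, did not pass. The shorter words TTCGCGC and TTGGCGC were present for 15 of 34 genes (44.1%, against 4.47%). They added Fen1 and Rfc1, which fell, and Rpa3. Other forms of the E2F site were not searched, so absence of a word does not show absence of a site.

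Of 5 origin licensing genes, Orc1, Orc2 and Orc6 fell, and Cdc6 (-0.48 ± 0.132) and Cdt1 (-0.23 ± 0.0703), the loaders of the helicase, did not pass (limma, adjusted p = 0.0692 and 0.0994). Orc1 was 7.86, 7.15 and 7.36 in untreated BCR-positive and 7.40, 6.11 and 6.73 in untreated BCR-negative cells, a difference of -0.71 ± 0.135 (limma, adjusted p = 0.0284). Its group ranges overlapped, because 2564 had a higher level than the other lymphomas in both populations. Orc2, a core subunit, was 9.44, 9.12 and 9.41 against 9.11, 8.47 and 8.99, a difference of -0.47 ± 0.0787 (limma, adjusted p = 0.0209). Orc6, the smallest subunit, was 9.44, 9.33 and 9.32 against 9.22, 8.86 and 9.12, a difference of -0.30 ± 0.0665 (limma, adjusted p = 0.0417). For Orc2 and Orc6 every BCR-negative value lay below every BCR-positive one.

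The MCM2-7 subunits form a ring, and all 6 were lower in each lymphoma, but by little: their differences ran from -0.33 (Mcm2) to -0.19 (Mcm7). Mcm2 alone fell. It was 10.59, 10.34 and 10.54 in BCR-positive and 10.38, 9.94 and 10.16 in BCR-negative cells, with overlapping ranges and a difference of -0.33 ± 0.0655 (limma, adjusted p = 0.0312). Mcm3 was 10.13, 10.06 and 10.06 against 9.91, 9.65 and 9.79 without overlap, and missed the threshold (limma, adjusted p = 0.0584). Mcm4, Mcm5, Mcm6 and Mcm7 had differences of -0.20, -0.25, -0.23 and -0.19.

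Of 8 origin firing genes, Ccne1, Mcm10, Gins1 and Gins3 fell. Ccne1 was 8.78, 9.37 and 8.87 in BCR-positive and 8.22, 8.07 and 8.30 in BCR-negative cells, so that the BCR-negative arrays lay close together and below all BCR-positive ones. The difference was -0.81 ± 0.136 (limma, adjusted p = 0.0209). Gins1, a GINS subunit, was 8.89, 9.16 and 8.99 against 8.51, 8.23 and 8.61, a difference of -0.56 ± 0.120 (limma, adjusted p = 0.0354). Its groups did not overlap, and 2646 had the highest BCR-positive and the lowest BCR-negative value. Gins3, another GINS subunit, was 8.25, 7.99 and 7.96 against 7.92, 7.16 and 7.50, a difference of -0.54 ± 0.0940 (limma, adjusted p = 0.0226). Mcm10, which helps the helicase to start unwinding, was 9.24, 8.996 and 8.92 against 8.95, 8.13 and 8.58, a difference of -0.50 ± 0.119 (limma, adjusted p = 0.0490). Gins3 separated the groups narrowly, and Mcm10 did not, since 2564 was high in both. Gins4, the remaining GINS gene listed, was 9.79, 9.61 and 9.68 against 9.39, 9.36 and 9.60 (-0.25 ± 0.0651; limma, adjusted p = 0.0635). Cdc45 (-0.34 ± 0.122), the helicase cofactor, and the kinase genes Dbf4 (-0.19 ± 0.0770) and Cdc7 (-0.14 ± 0.152) did not pass.

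**Figure D2:**
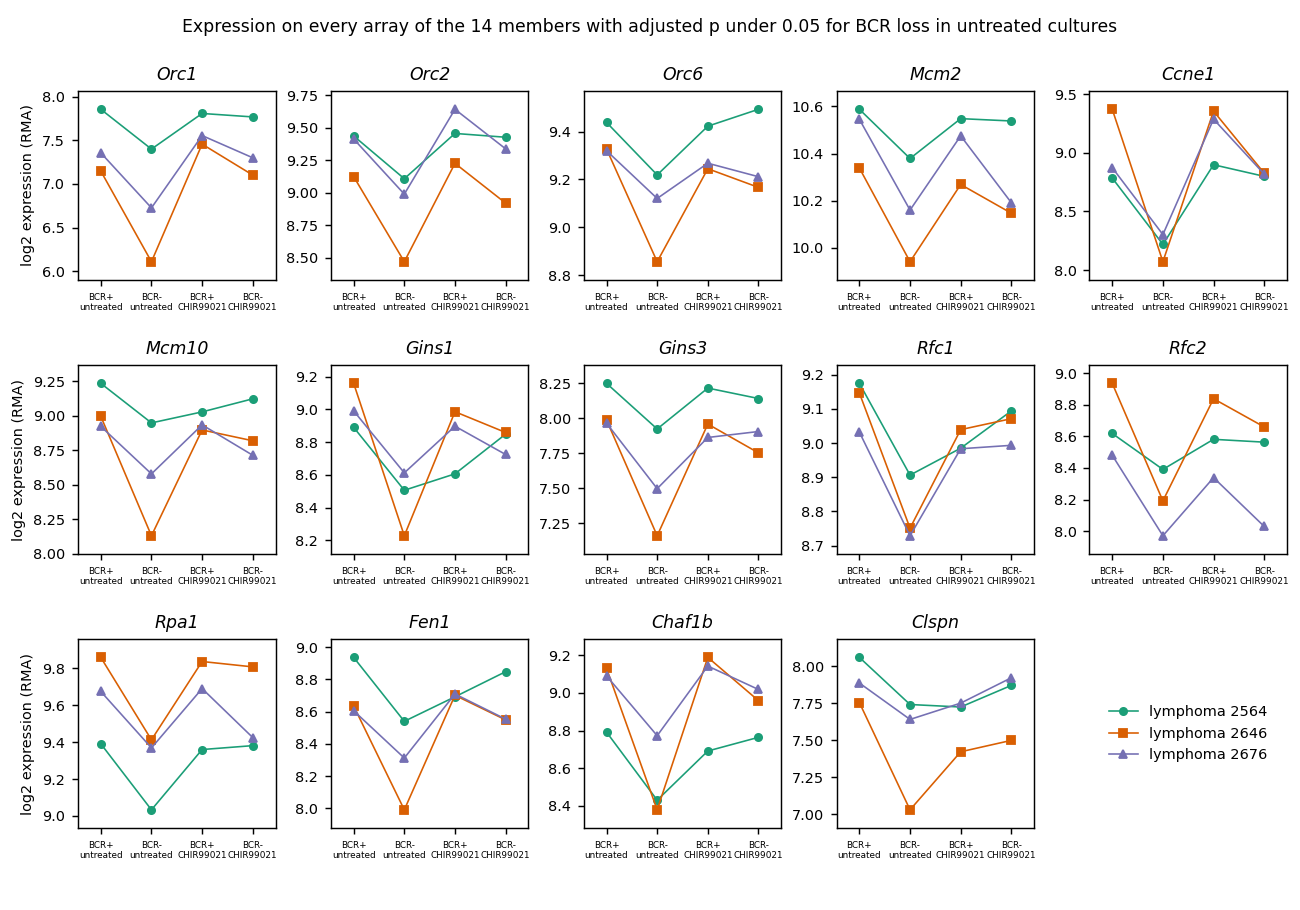
Log2 expression on each of 12 arrays for the 14 genes that fell after BCR loss in untreated cultures, by group on the x axis, with 1 line for each lymphoma. In each panel all 3 lines drop from untreated BCR+ to untreated BCR- cells, and they are higher again in BCR- cells with CHIR99021; y axes differ between panels and do not start at 0.

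Among genes of the fork itself, none of 6 polymerase and primase genes passed. The closest was Prim1, the catalytic primase subunit, at -0.44 ± 0.110 (limma, adjusted p = 0.0563), followed by Pole (-0.28) of the leading-strand polymerase, the polymerase α genes Pola1 (-0.33) and Pola2 (-0.24), and Pold1 (-0.14) of polymerase δ. Prim2, the large primase subunit, differed by -0.07 ± 0.0621. The clamp gene Pcna was 11.51, 11.55 and 11.66 in BCR-positive and 11.62, 11.42 and 11.59 in BCR-negative cells, a difference of -0.03 ± 0.0691. It was higher in BCR-negative cells of 2564 and lower in those of the other lymphomas, and cyclic loess turned its mean difference positive, the only sign that a rescaling changed in this comparison.

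Of 4 clamp loader genes, Rfc1 and Rfc2 fell. Rfc1, the large subunit, was 9.17, 9.15 and 9.03 against 8.91, 8.75 and 8.73, a difference of -0.32 ± 0.0541 (limma, adjusted p = 0.0209). Rfc2 was 8.62, 8.93 and 8.48 against 8.39, 8.19 and 7.97, a difference of -0.49 ± 0.0986 (limma, adjusted p = 0.0312). In both, the groups did not overlap, and Rfc1 varied little between lymphomas. Rfc3 (-0.38) and Rfc5 (-0.24) did not pass.

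Of the RPA genes, Rpa1, which encodes the large DNA-binding subunit, fell. It was 9.39, 9.86 and 9.67 against 9.03, 9.41 and 9.37, a difference of -0.37 ± 0.0689 (limma, adjusted p = 0.0273), with overlap because 2646 was high in both groups. Rpa2 (-0.30) and Rpa3 (-0.23) did not pass. Fen1, the flap nuclease of the lagging strand, was 8.94, 8.64 and 8.61 against 8.54, 7.99 and 8.31, a difference of -0.45 ± 0.0953 (limma, adjusted p = 0.0359), whereas the ligase gene Lig1 (-0.31 ± 0.114) did not pass. Every BCR-negative value of Fen1 was below the BCR-positive ones, and its dimmer second probe set differed by -0.28 in the same direction.

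Chaf1b, a subunit of the histone chaperone at the fork, was 8.79, 9.13 and 9.09 against 8.43, 8.38 and 8.77, a difference of -0.48 ± 0.0954 (limma, adjusted p = 0.0312). Clspn, which encodes the checkpoint mediator claspin, was 8.06, 7.76 and 7.89 against 7.74, 7.03 and 7.64, a difference of -0.43 ± 0.0897 (limma, adjusted p = 0.0338). Both genes fell without overlap of the groups. Chaf1a, the partner of Chaf1b, was close to the threshold (-0.38 ± 0.0965; limma, adjusted p = 0.0575), and Uhrf1, which recruits the maintenance methyltransferase (-0.24), and Dtl, an adaptor for CDT1 destruction (-0.23), did not pass. In all, 18 of 40 genes had all 3 BCR-negative arrays below all 3 BCR-positive ones, against 5.72% of all genes.

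Related genes outside the 40 members followed the same direction in part. Of 73 measured genes of licensing, fork protection, S-phase kinases, E2F factors and nucleotide supply, 6 fell and 1 rose, with a median of -0.21. Pole2 (-0.52 ± 0.0914), a polymerase ε subunit, Mcm8 (-0.52 ± 0.104), a helicase of recombination, Rrm2 (-0.41 ± 0.0750), which makes deoxynucleotides, Dut (-0.43 ± 0.0928), which removes dUTP, Donson (-0.40 ± 0.0934), needed for firing, and Skp2 (-0.32 ± 0.0701), the ubiquitin ligase subunit that targets p27, fell. Cdkn1b, which encodes the CDK inhibitor p27, was the 1 gene that rose (0.49 ± 0.111; limma, adjusted p = 0.0429). It was 9.57, 9.36 and 9.25 in BCR-positive and 9.94, 10.08 and 9.63 in BCR-negative cells, without overlap. None of 19 measured mitosis genes passed with limma (6 at an unadjusted p under 0.05), and their median was -0.14. Of 6 plasma cell markers, Prdm1, which encodes the plasma cell regulator BLIMP1, rose (1.62 ± 0.293; limma, adjusted p = 0.0248). It was 4.14, 4.56 and 4.44 in BCR-positive and 4.71, 6.56 and 6.75 in BCR-negative cells, without overlap. The other 5 did not pass, with Irf4 at 0.50 and Sdc1 at 0.35 on the positive side, Tnfrsf17 at 0.02, and Xbp1 (-0.12) and Jchain (-0.04) on the negative side. The summed signal of the 6, as log2, was 10.8 to 11.1 in untreated BCR-positive and 11.1 to 11.4 in untreated BCR-negative cells, with Jchain and Tnfrsf17 dim in both. With CHIR99021 it was 10.5 to 11.1 and 10.8 to 11.3. None of 9 myeloid markers passed with limma (1 at an unadjusted p under 0.05), and 6 had higher and 3 lower means. Itgam was higher in BCR-negative cells of each lymphoma, at 5.18, 6.63 and 6.74 in BCR-positive against 5.46, 8.03 and 7.34 in BCR-negative cells (0.76 ± 0.261; limma, adjusted p = 0.130). Csf1r was also higher in each lymphoma (0.38 ± 0.231; limma, adjusted p = 0.412). The summed myeloid signal, as log2, was 7.51 to 8.42 in BCR-positive and 7.63 to 9.03 in BCR-negative cells, with Lyz2, Cd14, Adgre1 and S100a8 dim. The part of these markers in the result was not tested.

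The number of genes passing rested on the block and on single arrays. Leaving the block out gave 0 genes (24 at an unadjusted p under 0.05), a random block gave 2, only the 6 arrays compared gave 0 (32 at an unadjusted p under 0.05), and with array medians subtracted 24 did. Without lymphoma 2646 or 2676 none passed (23 and 27 at an unadjusted p under 0.05). Without the untreated BCR-positive array of 2564, 2646 or 2676, 5, 0 and 0 passed, and without the untreated BCR-negative one 23, 0 and 7. Without the CHIR99021-treated BCR-negative array of 2646 it was 5, and without the treated BCR-positive one of 2676 it was 9. Ccne1 kept its call in 17 of 24 alternatives, Gins3 and Orc2 in 16, Rfc1 in 15, Orc6 in 7 and Mcm10 in 6, and no called gene changed direction in any.

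The second comparison asked how CHIR99021 changed BCR-negative cells. Here 5 of 40 genes rose and none fell, namely Orc1, Ccne1, Gins3, Orc2 and Rfc1, and 35 did not pass. Over all genes the share called higher was 1.91%, and 19 of 40 were higher at an unadjusted p under 0.05, against 11.4%. In 23 of 40 all 3 lymphomas had the higher value with CHIR99021, against 21.2% of all genes. Over all genes 360 rose and 332 fell, with array medians subtracted 836 and 253, and with cyclic loess 237 and 354. The median difference was 0.19 against 0.01 over all genes, and it was 0.06, 0.41 and 0.11 in the 3 lymphomas. For 38 of 40 genes the most positive difference was in 2646, a count not made over all genes. Medians of related genes were 0.05, 0.30 and 0.17, and those of mitosis genes -0.03, 0.23 and 0.01, also highest in 2646. This comparison uses the same untreated BCR-negative arrays as the first, with the opposite sign, so a high or low value on one of them enters both, and the mirrored directions are not separate evidence.

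All 5 genes that rose had fallen after BCR loss. Orc1 went from 7.40, 6.11 and 6.73 to 7.77, 7.10 and 7.30 with CHIR99021 (0.65 ± 0.135, 1.56-fold; limma, adjusted p = 0.0350). Ccne1 went from 8.22, 8.07 and 8.30 to 8.80, 8.83 and 8.82 (0.62 ± 0.136, 1.53-fold; limma, adjusted p = 0.0409). The treated Ccne1 values lay within a narrow band above all untreated ones, while Orc1 overlapped. Gins3 went from 7.92, 7.16 and 7.50 to 8.14, 7.75 and 7.90 (0.41 ± 0.0940; limma, adjusted p = 0.0478). Orc2 went from 9.11, 8.47 and 8.99 to 9.43, 8.92 and 9.34 (0.37 ± 0.0787; limma, adjusted p = 0.0362). Rfc1 went from 8.91, 8.75 and 8.73 to 9.09, 9.07 and 8.99 (0.26 ± 0.0541; limma, adjusted p = 0.0356). Gins3 and Orc2 overlapped between groups and Rfc1 did not. In all, 6 of 40 genes (Ccne1, Gins1, Rfc1, Rfc5, Fen1 and Chaf1a) had all treated arrays above all untreated ones, against 4.6% of all genes.

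By role, the 5 licensing genes were all higher in each lymphoma, with a median of 0.31, and the 8 firing genes had a median of 0.31. The 3 chromatin genes had a median of 0.31, with Chaf1b at 0.39 ± 0.0954 (limma, adjusted p = 0.0564) and Uhrf1 at 0.03 ± 0.0714. Prim1 (0.45 ± 0.110; limma, adjusted p = 0.0554), Fen1 (0.37 ± 0.0953) and Rpa1 (0.27 ± 0.0689) did not pass. The MCM2-7 genes were nearly level, with a median of 0.06 and a range from -0.03 (Mcm7) to 0.13 (Mcm2). Pcna differed by 0.00 ± 0.0691. Mcm4, Mcm7, Gins4 and Pold1 had small negative means, which were positive after subtraction of array medians, whereas 6 genes were negative with cyclic loess. No difference between roles was tested.

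**Figure D3:**
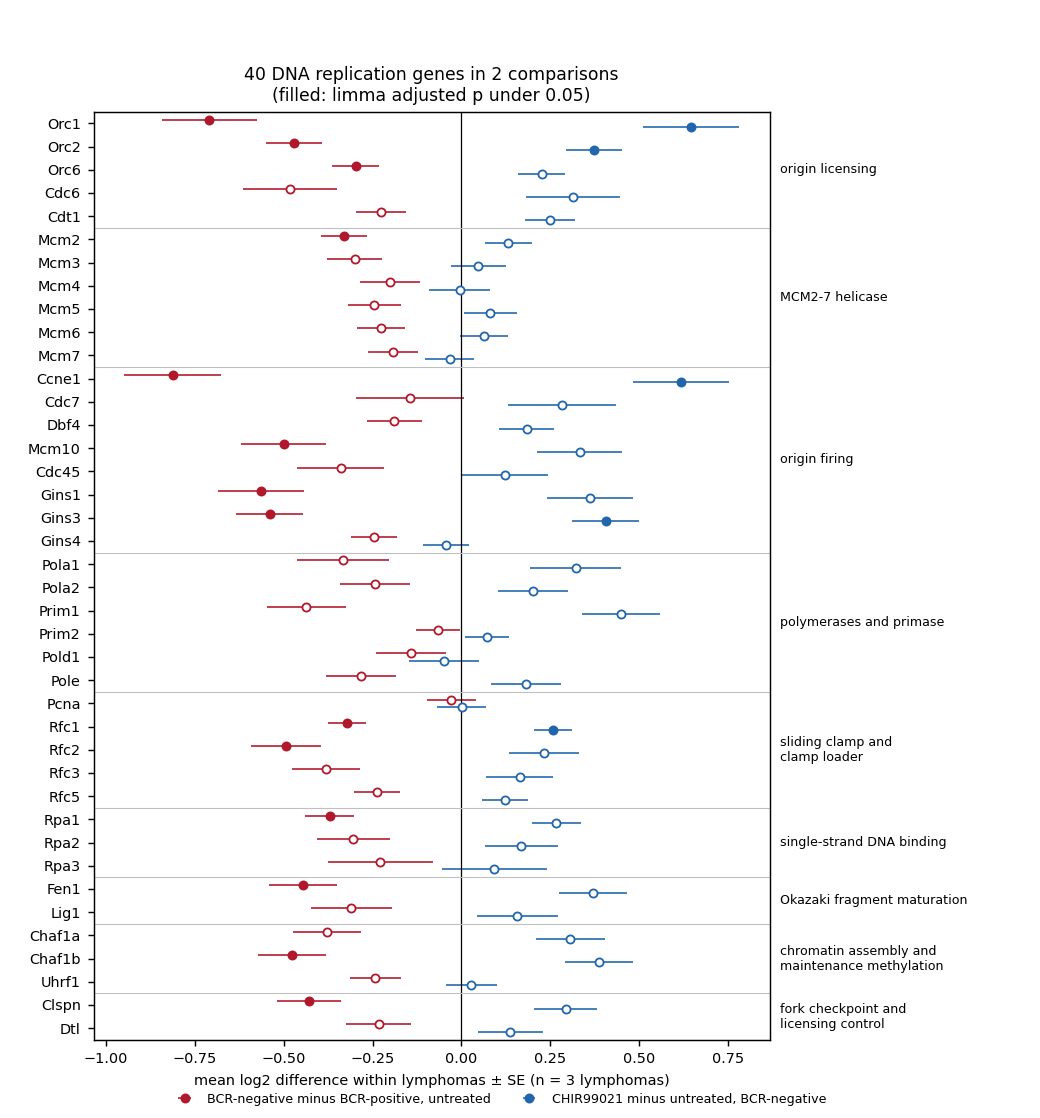
Mean log2 difference within lymphomas (n = 3 lymphomas) ± SE of the limma model for each of 40 genes, for BCR loss in untreated cultures (red) and for CHIR99021 in BCR-negative cells (blue). Filled points passed (limma, adjusted p under 0.05): 14 red points, all below 0, and 5 blue points, all above 0; the MCM2-7 genes have blue points near 0.

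Among related genes, Skp2 rose with CHIR99021 in BCR-negative cells (0.40 ± 0.0701; limma, adjusted p = 0.0199), from 9.15, 9.33 and 9.47 to 9.42, 9.95 and 9.80, and Mcm8 rose by 0.49. Cdkn1b fell (-0.49 ± 0.111; limma, adjusted p = 0.0449), from 9.94, 10.08 and 9.63 to 9.36, 9.39 and 9.43. The RNA of Skp2 and that of Cdkn1b moved in opposite directions here, as they did after BCR loss. Both comparisons use the untreated BCR-negative arrays, and a link between these genes was not tested. Tfdp2, which encodes a dimerisation partner of E2F factors, fell (-0.54 ± 0.102; limma, adjusted p = 0.0261), and its difference after BCR loss was 0.04 ± 0.102. The other 69 of 73 measured genes did not pass, and neither did any of 19 mitosis genes with limma (4 at an unadjusted p under 0.05). All 7 measured B-cell markers had lower means with CHIR99021 in BCR-negative cells (median -0.33) and in BCR-positive cells (median -0.29). By lymphoma the medians were -0.64, -0.18 and -0.04 in BCR-negative and -0.59, -0.23 and -0.09 in BCR-positive cells. Lower in every lymphoma were 4 and 3 of the 7. Cd79b, a BCR signalling chain, fell in BCR-negative cells (-0.33 ± 0.0604; limma, adjusted p = 0.0240). The summed signal of the 7 markers, as log2, was 13.1 to 13.4 in untreated and 12.6 to 13.1 in treated BCR-negative cells. Of other lists, the erythroid marker Epor fell (-0.35 ± 0.0729; limma, adjusted p = 0.0360) and the myeloid marker Lyz2, with a dim mean signal, rose from 3.52, 3.57 and 3.85 to 4.28, 4.04 and 4.01 (0.46; limma, adjusted p = 0.0389). Of 6 plasma cell markers 3 had lower and 3 higher means, and none passed with limma (2 at an unadjusted p under 0.05). Prdm1 (-1.12 ± 0.293; limma, adjusted p = 0.0657) and Irf4 (-0.44 ± 0.132) were lower in each lymphoma. Itgam had a lower mean (-0.59 ± 0.261) but was higher in 2676. These 3 had higher means after BCR loss. Of 9 myeloid markers 5 had lower and 4 higher means. The summed myeloid signal was 7.63 to 9.03 untreated and 7.63 to 8.79 treated, and the part of these markers in the result was not tested.

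These calls, too, rested on the block and on single arrays. None passed without the block (7 at an unadjusted p under 0.05), with a random block or with only the arrays compared (16 each), while 12 passed with array medians subtracted, and 3 each with cyclic loess and with the mean of probe sets. Without lymphoma 2564, 2646 or 2676 none passed (21, 10 and 16 at an unadjusted p under 0.05). Without the untreated BCR-positive array of each lymphoma 1, 3 and 0 passed, and without the treated BCR-negative one 0, 0 and 2. Without the untreated BCR-negative array of 2646 or 2676 none passed, and without the treated BCR-positive one of these it was 1 and 0. Orc1 kept its call in 10 of 23 alternatives and Gins3 in 4, and all 5 stayed positive in each. The median over the 40 genes was 0.11 without lymphoma 2646 and 0.10 without its untreated BCR-negative array.

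The third comparison asked about CHIR99021 in BCR-positive cells. No replication gene passed with limma, against 0.0691% of all genes called lower, while at an unadjusted p under 0.05 it was 8 lower and none higher. The share lower at that unadjusted threshold was 5.36% over all genes. The median was -0.10 against 0.00 over all genes, 34 of 40 differences were negative, and 21 genes were lower in each lymphoma, against 16.8% of all genes. The 2 genes with the smallest p were Mcm7, at 10.90, 10.96 and 11.04 untreated and 10.58, 10.75 and 10.80 treated (-0.25 ± 0.0694; limma, adjusted p = 0.232), and Gins4, at 9.79, 9.61 and 9.68 and 9.40, 9.36 and 9.61 (-0.24 ± 0.0651; limma, adjusted p = 0.232). Both were lower in every lymphoma without overlap of the groups, Gins4 narrowly. All 6 MCM2-7 genes had negative means, while Orc1 (0.15), Orc2 (0.12), Cdt1 (0.13), Ccne1 (0.17), Chaf1b (0.00) and Pola2 (0.10) were on the positive side and did not pass. Related Tfdp2 (-0.61 ± 0.102) and the mitosis kinase gene Nek2 (-0.36 ± 0.0717) did not pass either (limma, adjusted p = 0.0751 and 0.110). Of 9 myeloid markers 5 had higher and 4 lower means. Csf1r was higher in each lymphoma and did not pass (0.95 ± 0.231; limma, adjusted p = 0.168). None of 23 alternatives called a replication gene here, and the median was -0.04 without the treated BCR-positive array of 2564 and -0.14 without lymphoma 2676.

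The fourth comparison asked whether BCR-negative and BCR-positive cells still differed when both had CHIR99021. No replication gene passed with limma, against 0.00531% of all genes called lower, and at an unadjusted p under 0.05 it was 2 lower and none higher, against 3.78% lower over all genes. In each lymphoma 10 genes were lower and 7 higher, against 13.9% and 17.8% of all genes. The median was -0.03, with 25 genes negative and 15 positive, and it was 0.06, -0.04 and -0.11 in the 3 lymphomas. The 2 smallest p belonged to Orc2, at 9.46, 9.23 and 9.64 in BCR-positive and 9.43, 8.92 and 9.34 in BCR-negative cells (-0.21 ± 0.0787), and Ccne1, at 8.90, 9.36 and 9.29 and 8.80, 8.83 and 8.82 (-0.37 ± 0.136). Both were lower in BCR-negative cells of every lymphoma (limma, adjusted p = 0.532 and 0.536), and by the least in 2564. Values of Orc2 overlapped, and those of Ccne1 did not. Pola1, Prim1, Prim2, Rfc1, Clspn and Dtl, lower in each lymphoma without inhibitor, were higher in each with it. None of these passed with inhibitor, and how many of all genes had this pattern was not counted. Of other listed genes, Cdkn1b (0.37 ± 0.111) and the centromere gene Cenpf (0.28 ± 0.0975) did not pass. No alternative called a replication gene. The median turned to 0.016 without the treated BCR-positive array of 2646 and to 0.0057 without lymphoma 2676, was -0.087 without the treated BCR-positive array of 2564, and a p above the threshold does not show equal levels.

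The difference between the BCR-loss effects with and without CHIR99021 was tested as an interaction. It was positive for all 40 genes, with a median of 0.31 against 0.01 over all genes, and 34 were positive in each lymphoma, against 16.4% of all genes. Of other lists, 66 of 73 related genes (median 0.24) and 18 of 19 mitosis genes (median 0.21) were positive too, and none of these passed with limma (22 and 1 at an unadjusted p under 0.05). None of 40 passed with limma (adjusted p of 0.928 or above), nor did any of 18820 genes (0%), while 22 of 40 had an unadjusted p under 0.05, all on the positive side. The share higher at that threshold was 3.35% over all genes. The smallest p belonged to Rfc1, with differences of 0.38, 0.43 and 0.31 in the lymphomas (0.37 ± 0.0764; limma, unadjusted p = 0.000713), and to Clspn, with 0.46, 0.80 and 0.42 (0.56 ± 0.127; limma, unadjusted p = 0.00140). So the absence of calls in CHIR99021 cultures beside the 14 in untreated ones is not shown to be a difference for any single gene. No alternative called a replication gene, and the median was 0.18 without lymphoma 2646 and 0.19 without its untreated BCR-negative array. In 9 genes (Orc6, Mcm2, Dbf4, Gins1, Gins3, Rfc1, Rfc2, Rfc3 and Clspn) CHIR99021 went with a lower value in all BCR-positive and a higher one in all BCR-negative populations. The share of all genes with this pattern was not counted.

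Last, CHIR99021-treated BCR-negative cells were set against untreated BCR-positive cells. None of 40 genes passed with limma, against 0.0159% of all genes called lower, and 9 were lower and none higher at an unadjusted p under 0.05 (4.05% lower over all genes). The median was -0.13, compared with -0.31 for untreated BCR-negative cells against the same BCR-positive arrays, and 36 genes were negative, 26 of them in each lymphoma against 13.4% of all genes. Gins4 had the smallest p, at 9.79, 9.61 and 9.68 in untreated BCR-positive and 9.43, 9.32 and 9.47 in treated BCR-negative cells (-0.29 ± 0.0651; limma, adjusted p = 0.196). Mcm3 came next, at 10.13, 10.06 and 10.06 and 9.86, 9.86 and 9.77 (-0.25 ± 0.0773; limma, adjusted p = 0.350). Both were lower in every lymphoma without overlap. The 6 MCM2-7 genes were lower in each lymphoma, between -0.25 and -0.16, and Orc1 (-0.06 ± 0.135), Prim1 (0.01 ± 0.110) and Pola1 (-0.01 ± 0.129) were near 0. Alternatives called none here, and the median was -0.079 without the untreated BCR-positive array of 2646.

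**Figure D4:**
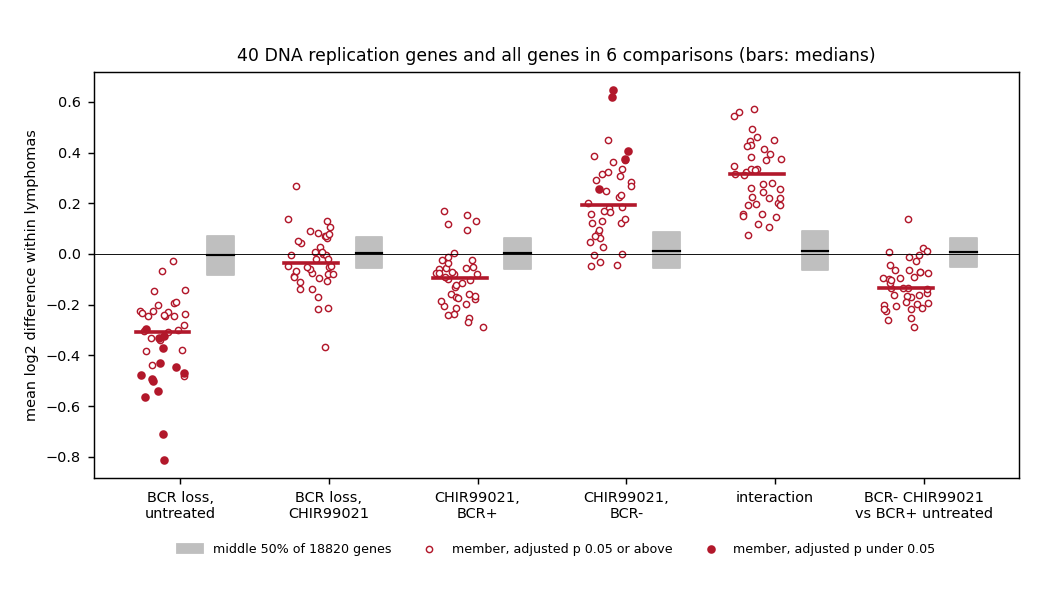
Mean log2 difference within lymphomas of 40 DNA replication genes (points; red bar, median) in 6 comparisons, beside the middle 50% and median of all 18820 genes (grey box, black bar). The members lie lowest for BCR loss in untreated cultures (median -0.31) and highest for the interaction (0.31) and for CHIR99021 in BCR-negative cells (0.19), and filled points mark an adjusted p under 0.05 in limma.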

How the data were processed

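RNA of 12 sorted populations (4 groups of 3 lymphomas) was hybridised to Mouse Gene 1.1 ST microarrays (Affymetrix). The values the authors deposited are log2 signals of probe sets, and the submitters' processing notes name Affymetrix Power Tools and RMA. No version or genome build is stated in the sources used here. RMA brings arrays to a common distribution of probe signals, so a change shared by most genes would not be seen. Of 35556 probe sets, 21218 had 1 symbol in the platform annotation, 1881 several and 12457 none listed; among several probe sets the one of highest mean stood for the gene, giving 18820 genes. Of the members, Pcna, Rpa3 and Fen1 had several probe sets, and their directions agreed for BCR loss in untreated cultures. The number of arrays limits the precision. The p-values rest on the spread left after group and lymphoma are fitted, pooled over all 12 arrays and drawn towards that of other genes. With 1 array for each group and lymphoma, that spread holds how far group differences vary between the 3 lymphomas, together with variation between arrays. Differences in level between lymphomas are taken out by the block.

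A limma 3.58.1 model (R 4.3.3) of group and lymphoma was fitted to all arrays and genes (6 residual degrees of freedom), with Benjamini-Hochberg adjustment, and was tested on simulated data. Lymphoma was a block because the labels name the same independent lymphoma in each group; deviations from group means correlated at 0.813 to 0.907 between arrays of 1 lymphoma (18 pairs). Per-array values are given for members that passed, for the brightest and dimmest and, where none passed, for the 2 with the smallest p; of related and mitosis genes, those that passed or had the smallest p are named. Members and lists were chosen with earlier results of these data known. Alternatives were other blocks, only the arrays compared, a filter at the 30th percentile, the mean of probe sets, rescaling, a trended robust variance and leaving out arrays.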

Additional observations from a re-analysis of the deposited data

How the results depend on the processing

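For BCR loss in untreated cultures the number of replication genes passing limma was 14. It was 0 with no replicate block, 2 with lymphoma as a random block, 10 with the co-culture as block, 0 with only the arrays compared and 24 with array medians subtracted, and between 0 and 23 when a lymphoma or array was left out. For CHIR99021 in BCR-negative cells it was 5. It became 0 with no replicate block, 0 with a random block, 0 with only the arrays compared, 3 with the mean of probe sets, 12 with array medians subtracted and 3 with cyclic loess, and 0 to 7 with samples left out. The other 4 comparisons had 0 genes passing under every alternative run. The co-culture block cannot be fitted for CHIR99021 comparisons, and the interaction uses all arrays already. With samples left out, the median over the 40 genes ran from -0.38 to -0.23 for BCR loss in untreated cultures, 0.10 to 0.26 for CHIR99021 in BCR-negative cells, 0.18 to 0.39 for the interaction and -0.14 to -0.04 for CHIR99021 in BCR-positive cells. For BCR loss with CHIR99021 it ran from -0.09 to 0.02 and so changed sign. With array medians subtracted it was -0.081 there and -0.050 for CHIR99021 in BCR-positive cells, against -0.03 and -0.10. For treated BCR-negative against untreated BCR-positive cells it was -0.15 to -0.079, and -0.11 with the mean of probe sets, against -0.13. The cause of these shifts was not tested.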

Other observations

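The level of the replication gene Pola2 differed between lymphomas in every group, and this gene was not typical of the members. In untreated BCR-positive cells its standard deviation over lymphomas was 0.617, the largest among the members. Orc1 came next at 0.364, while Pcna was at 0.0792 and Prim2 at 0.0398. Pola2, the regulatory subunit of polymerase α, was 10.64, 9.89 and 9.42 in untreated BCR-positive and 10.64, 9.35 and 9.24 in untreated BCR-negative cells of lymphomas 2564, 2646 and 2676. With CHIR99021 it was 10.79, 9.95 and 9.50 and 10.67, 9.87 and 9.28. On all arrays 2564 was the highest and 2676 the lowest, and the gap between these exceeded the difference of -0.24 ± 0.0979 that went with BCR loss.

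Cdkn1a, the CDK inhibitor p21, like Pola2 above, was singled out after its values were seen. It was 6.51, 8.80 and 6.14 in untreated and 8.84, 9.54 and 7.03 in treated BCR-positive cells, and 5.74, 8.44 and 5.94 in untreated and 8.53, 9.31 and 6.66 in treated BCR-negative cells, higher with CHIR99021 in each lymphoma and population. Neither difference passed (1.32 ± 0.386 and 1.46 ± 0.386; limma, adjusted p = 0.258 and 0.0678).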
